A study of Mus musculus with 6 samples.

Results

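The genes described here are 41 of the 35673 rows of a gene count table from mouse cornea. They code for regulators of splicing and their close partners, and were taken by symbol: Srsf followed by digits, any symbol that starts with Hnrnp, and Ptbp1, Ptbp2, Ptbp3, Clk1, Clk2, Clk3, Clk4, Sarnp, Tra2a and Tra2b. Symbols that contain -ps, the mark of a pseudogene, were left out. This gave 11 SR genes, 20 hnRNP genes, 3 Ptbp genes, 4 Clk genes and a group of 3 made of Tra2a, Tra2b and Sarnp. The pseudogene rows Hnrnpa1l2-ps and Hnrnpa1l2-ps2 were dropped by that choice and held at most 8 counts in any library.

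Gene counts from mRNA-enriched RNA of whole cornea were available for 6 libraries, 3 titled Control and 3 titled Cationorm. Both groups were male C57BL/6J mice aged 6 to 8 weeks. The study made a contact lens-related dry eye model, CLDE, from drops of 0.1% benzalkonium chloride (an irritant preservative of eye drops) at 5 µL per eye together with lens wear for 6 h per day. Cationorm, a cationic oil-in-water eye drop, was then given for 14 days at the same drop volume. All 6 libraries carry the condition tag CLDE and the treatment tag wild-type, so the labels do not settle whether the Control mice were untreated or had the model. Benzalkonium chloride, lens wear and the eye drop therefore cannot be told apart as sources of any difference given here. The labels put the libraries in a single batch and do not say that they came from separate mice, so each p-value reflects only the spread among these libraries, and that spread may be technical.

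Splicing removes introns from pre-mRNA, and the sites used can differ between cells. SR proteins bind exonic enhancers through RNA recognition motifs and recruit the spliceosome through arginine- and serine-rich domains, which kinases of the Clk and Srpk families phosphorylate. The hnRNP proteins coat nascent RNA and often oppose SR proteins, and the Ptbp proteins are hnRNP-type repressors that bind pyrimidine-rich tracts. Many of these genes regulate their own level by splicing in an exon that sends the transcript to nonsense-mediated decay, so a gene count mixes productive and decaying transcripts.

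Library totals lay between 32486043 counts (Cationorm 1) and 39193311 counts (Control 1). Low counts favoured even numbers, with 2337 to 2532 genes at a count of 2 per library against 1088 to 1173 at a count of 1, so a count may not be a single fragment. Markers of corneal epithelium summed to 58410 to 62838 CPM (counts scaled by the library total) in Control and 60053 to 62886 CPM in Cationorm, and keratocyte markers to 2712 to 2748 CPM and 2338 to 3312 CPM. The keratocyte sum mixed directions, with 4 of 7 markers lower in Cationorm and 3 higher. Kera was at 190, 169 and 175 CPM in Control and 148, 71.9 and 72.8 CPM in Cationorm. Ptgds was at 257, 248 and 565 CPM in Control and 803, 682 and 597 CPM in Cationorm. Markers of other tissues varied widely between libraries. Over all 6, the sum of 14 retina markers spanned 2092 to 8242 CPM and that of 11 lens markers 92.8 to 6738 CPM. Sums that separated the groups were those of 9 iris and pigment markers (427 to 1080 CPM in Control, 1183 to 1449 CPM in Cationorm, 9 of 9 higher) and of 6 corneal endothelium markers (1362 to 1423 CPM against 1439 to 1552 CPM, 6 of 6 higher). Their part in the members' values was not tested. No marker list had a gene at 0 in every library. Over all genes, Control 3 and Cationorm 3 were the most alike pair, with a Pearson r of log2 CPM of 0.994 against 0.985 to 0.989 between libraries of the same group. In such bulk samples, fewer cells of a type and less RNA per cell cannot be told apart.

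Across the 41 splicing regulators, levels in Control and Cationorm cornea were close. Sarnp, an RNA-binding protein of the mRNA export machinery, and Ptbp2, the Ptbp paralogue typical of neurons, were the members with the largest differences, both lower in Cationorm. For Sarnp this holds for its own row only. Summed with the row of its near-identical pseudogene Gm6563, it had a log2 fold change of -0.04 ± 0.10. Most SR genes were slightly lower in Cationorm, and the hnRNP genes were divided. No member passed the test across all genes. By edgeR's quasi-likelihood test with Benjamini-Hochberg adjustment, 0 of 18804 genes tested (0%) and 0 of 41 members had an adjusted p under 0.05, and the smallest adjusted p was 0.550. All 41 members passed the filter on low counts.

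At an unadjusted p under 0.05, 6 members were lower in Cationorm (Sarnp, Ptbp2, Hnrnph1, Srsf2, Hnrnph3 and Tra2a) and 0 were higher, against 3.57% of all genes lower and 5.16% higher. DESeq2 called 55 genes, 7 lower (0.0372% of those tested) and 48 higher (0.255%). Sarnp and Ptbp2 were among the 7 lower genes, with DESeq2 adjusted p-values of 5.44e-06 and 0.0488. With pseudogene rows added to their genes, the DESeq2 adjusted p of Sarnp was 0.915. The fitted log2 fold changes of the members, Cationorm over Control, ran from -0.85 to 0.16 with a median of -0.038, beside 0.0055 for all genes tested. Of the members, 24 of 41 had a value below 0, against 48.8% of all genes. Their median size of change, sign ignored, was 0.090 on the log2 scale, beside 0.146 for all genes.

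**Figure D1:**
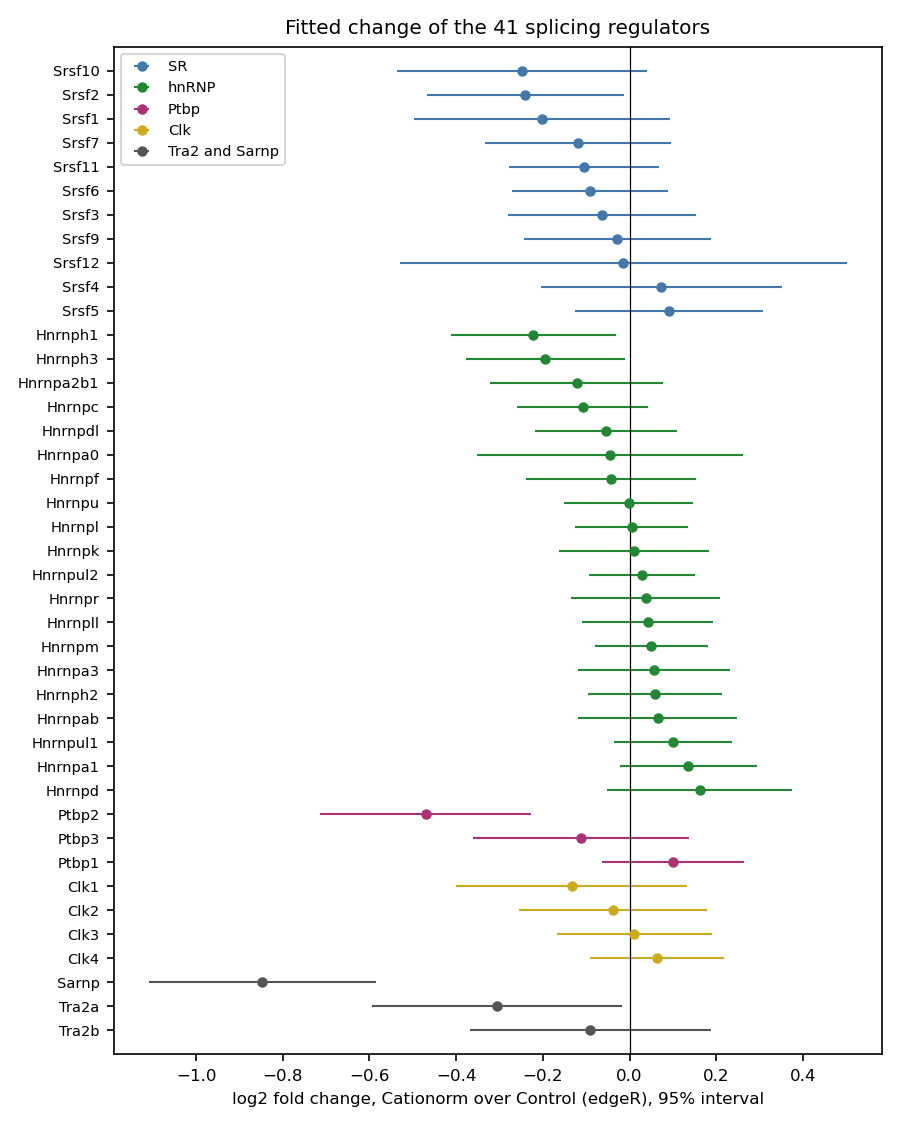
Fitted log2 fold change (x axis, Cationorm over Control, edgeR) of the 41 splicing regulators, ordered within class, with points for the estimate and lines for its 95% interval; colours mark the class. Sarnp at -0.85 and Ptbp2 at -0.47 lie farthest from 0, and the other intervals lie near or across 0.

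Counted on CPM, 11 of 41 members (26.8%) had their 3 Cationorm values below all 3 Control values, beside 8.9% of all genes. They were Hnrnpa2b1, Hnrnpdl, Hnrnph1, Hnrnph3, Ptbp2, Sarnp, Srsf1, Srsf10, Srsf11, Srsf2 and Srsf6. That count depended on the scale: after TMM scaling, edgeR's correction for library composition, it was 5 of 41 (Hnrnph1, Hnrnph3, Ptbp2, Sarnp and Srsf2), beside 6.09% of all genes. In the opposite direction, Hnrnpul1 was higher in every Cationorm library on CPM (6.41% of all genes), joined by Hnrnpul2 after TMM scaling (8.73%).

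Control 2 was often the library that stood out. It was the highest of the 6 libraries for 20 of 41 members (48.8%), beside 22.5% of all genes, and for 8 of 11 SR genes. The members together took 0.779, 0.848 and 0.781% of the counts in Control 1 to 3 and 0.768, 0.764 and 0.752% in Cationorm 1 to 3. Control 2 stood above the other Control libraries, and the groups did not overlap in these shares of the library total. The TMM factors were 1.02 in Control 1 and 0.971 in Cationorm 1. Dividing by them puts Cationorm 1 above Control 1, so the separation held on library totals only. The median log2 fold change of the members was nearer 0 without Control 2 (-0.0065) or Cationorm 3 (-0.0036). It was farther from 0 without Control 3 (-0.0814), Cationorm 2 (-0.0792) or Cationorm 1 (-0.0741).

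**Figure D2:**
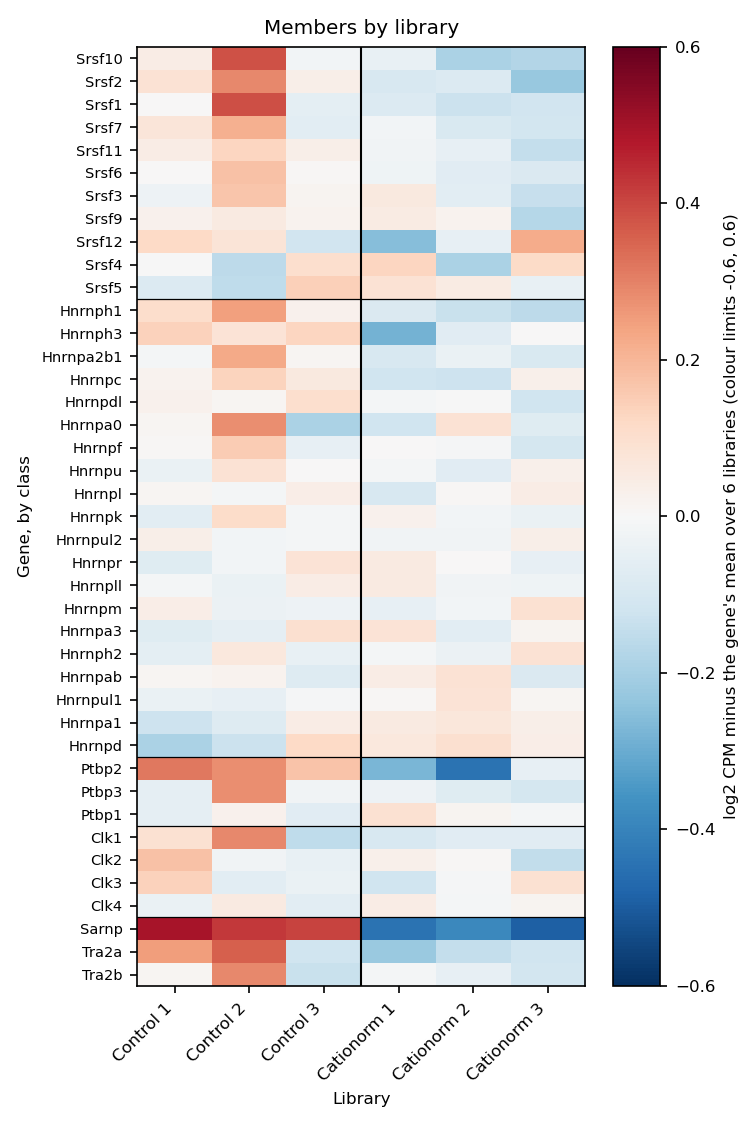
Log2 CPM of each member (rows, grouped by class) in each library (columns), as the difference from that gene's mean over the 6 libraries; red is above and blue below the mean, and the colours end at -0.6 and 0.6. The Control 2 column is the reddest in the SR block, and the Sarnp row is red in 3 Control libraries and blue in 3 Cationorm libraries.

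SR genes were mostly lower in Cationorm, by small amounts. Of 11, 9 had a fold change below 0, with a class median of -0.09 on the log2 scale, and none passed the test. The 9 were Srsf1, Srsf2, Srsf3, Srsf6, Srsf7, Srsf9, Srsf10, Srsf11 and Srsf12, and the other two were Srsf4 and Srsf5. SR genes together took 0.181, 0.202 and 0.184% of counts in Control and 0.180, 0.173 and 0.166% in Cationorm, so Control 1 and Cationorm 1 were nearly equal. The class median moved to -0.04 without Control 2, still with 9 of 11 below 0.

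Srsf2, which binds exonic enhancers and also acts in transcription elongation, was at 265, 305 and 256 CPM in Control and 234, 236 and 213 CPM in Cationorm. Every Cationorm library was below every Control library. Its log2 fold change was -0.24 ± 0.10 (SE, n = 3 per group, 95% interval -0.47 to -0.01), with an unadjusted p of 0.040 and an adjusted p of 0.550 by edgeR. In gene span, Mettl23 and Mfsd11 overlap it, and 31.8% of its 50-base words also occur in transcripts of other genes. Those neighbours had log2 fold changes of -0.06 ± 0.12 (Mettl23) and 0.09 ± 0.07 (Mfsd11), and no strand setting is given, so reads of overlapping genes cannot be told apart.

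Srsf1, the founding SR protein and a broad enhancer of exon inclusion, stood at 246, 322 and 237 CPM in Control and 232, 225 and 227 CPM in Cationorm. Control 2 was far above the rest, and the remaining 5 libraries spanned 225 to 246 CPM. The log2 fold change of -0.20 ± 0.13 became -0.06 without Control 2. Srsf10, a splicing repressor when dephosphorylated, had the same shape, with 102, 129 and 97.5 CPM in Control and 95.8, 86.7 and 87.3 CPM in Cationorm (log2 fold change -0.25 ± 0.12, adjusted p 0.550 by edgeR).

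Srsf3, the smallest SR protein and an adaptor for mRNA export, was at 242, 277 and 250 CPM in Control and 257, 236 and 224 CPM in Cationorm, and the groups overlapped (log2 fold change -0.06 ± 0.09). Srsf6, known for its part in epidermal wound healing and differentiation, was at 267, 301 and 268 CPM in Control and 262, 254 and 251 CPM in Cationorm (-0.09 ± 0.08). Both were highest in Control 2 and lowest in Cationorm 3. Srsf11, an SR-related protein, was at 140, 149 and 140 CPM in Control and 134, 132 and 123 CPM in Cationorm (-0.11 ± 0.07).

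Srsf5, first described as a growth-induced gene of regenerating liver, differed from the rest in direction. It was at 362, 344 and 423 CPM in Control and 406, 396 and 371 CPM in Cationorm, with a log2 fold change of 0.09 ± 0.09. Control 2, the highest library for most SR genes, was the lowest for Srsf5, and the groups overlapped. Srsf4 lay between 15.8 and 19.7 CPM (0.07 ± 0.12), Srsf7 between 112 and 140 CPM (-0.12 ± 0.09) and Srsf9 between 29.8 and 34.9 CPM (-0.03 ± 0.09). Srsf12, a relative of Srsf10, was the least abundant member at 1.42 to 1.97 CPM (-0.01 ± 0.22).

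The Tra2 genes, vertebrate counterparts of the fly sex-determination factor transformer 2, code for SR-like proteins that bind GA-rich exonic enhancers. Tra2a was at 133, 143 and 103 CPM in Control and 95.6, 101 and 103 CPM in Cationorm. Control 3 was level with the Cationorm libraries, so the groups overlapped. Its log2 fold change was -0.31 ± 0.12 (95% interval -0.59 to -0.02), with an unadjusted p of 0.041 and an adjusted p of 0.550 by edgeR. Without Control 3 the value was -0.44, and without Control 2 it was -0.21.

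Tra2b, which shares the binding motif and is known to control its own poison exon, was at 166, 201 and 150 CPM in Control and 163, 159 and 152 CPM in Cationorm (log2 fold change -0.09 ± 0.12). Again Control 2 was the highest library, and the direction turned without it (0.03), while the value without Control 3 was -0.18. As a ratio of counts not corrected for length, Tra2a was 80.2, 71.2 and 68.6% of Tra2b in Control and 58.7, 63.6 and 67.6% in Cationorm. The groups did not overlap in this ratio, but Control 3 and Cationorm 3 were less than 1 percentage point apart.

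**Figure D3:**
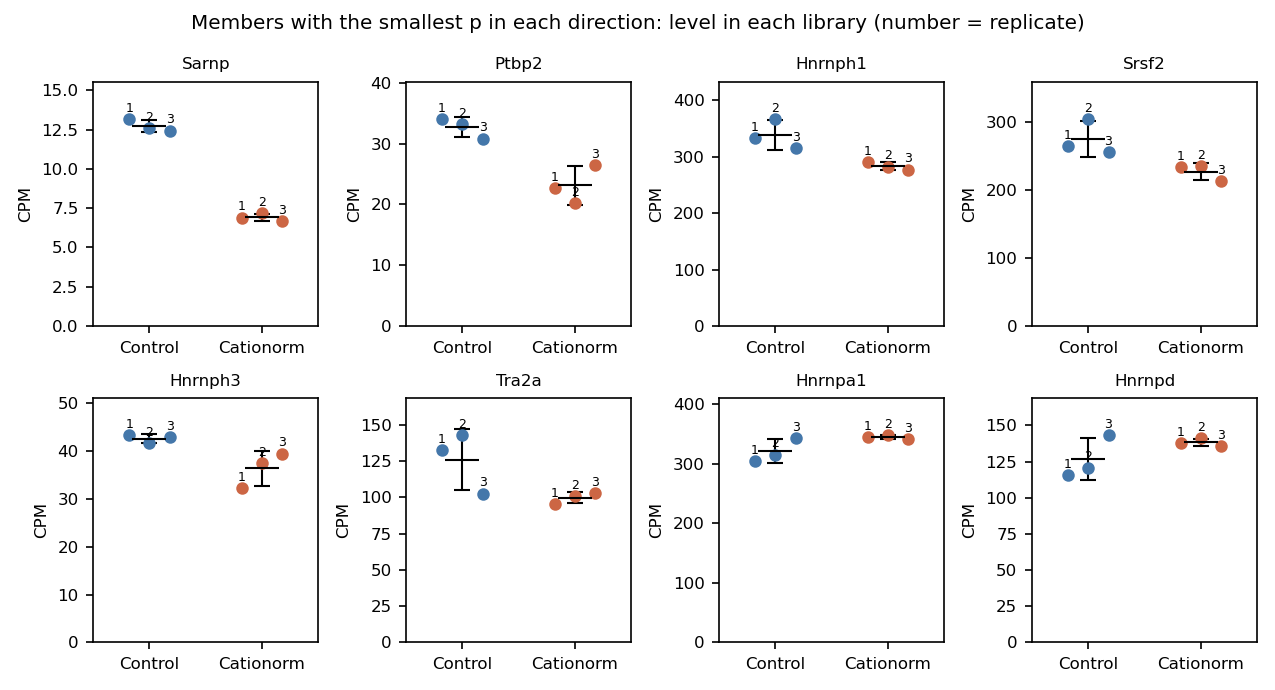
Level in CPM (y axis, from 0) of the 6 members lower in Cationorm at an unadjusted p under 0.05 and of the pair with the smallest p among those higher (Hnrnpa1 and Hnrnpd), by group; points are libraries numbered by replicate, horizontal bars the group mean and vertical bars the SD. Sarnp, Ptbp2, Hnrnph1, Srsf2 and Hnrnph3 have no overlap between groups, while Tra2a, Hnrnpa1 and Hnrnpd overlap through Control 3.

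The Clk genes, which code for dual-specificity kinases that phosphorylate SR proteins, showed little difference and none passed the test. Clk1, whose transcript is known to keep introns in the nucleus until stress triggers their removal, was the most abundant of them at 232, 266 and 196 CPM in Control and 204, 207 and 207 CPM in Cationorm. The Cationorm libraries were within 4 CPM of each other and inside the Control range (log2 fold change -0.13 ± 0.11). Clk2, which also acts in hepatic insulin signalling, lay between 51.3 and 64.3 CPM with a log2 fold change of -0.04 ± 0.09. Clk3 lay between 44.1 and 52.6 CPM (0.01 ± 0.08) and Clk4 between 76.2 and 82.6 CPM (0.06 ± 0.07). The direction of Clk2 and Clk3 changed with single libraries.

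The 20 hnRNP genes were divided, with 8 lower and 12 higher in Cationorm and a class median of 0.02 on the log2 scale. None passed the test. The sign of that median turned when libraries were scaled by total counts alone (-0.01) and without Control 1 (-0.0029, 11 of 20 lower). Hnrnpa2b1, a reader of RNA methylation and a carrier of RNA along microtubules, was the most abundant member both in CPM and per kilobase. It was at 667, 787 and 680 CPM in Control and 629, 655 and 632 CPM in Cationorm (log2 fold change -0.12 ± 0.08, adjusted p 0.612 by edgeR). Every Cationorm library was below every Control library, by a margin that TMM scaling removed.

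Hnrnph1, which binds G-rich tracts, had the smallest p of the class. Its levels were 333, 367 and 315 CPM in Control and 291, 282 and 277 CPM in Cationorm, with no overlap between groups. The log2 fold change was -0.22 ± 0.08 (95% interval -0.41 to -0.03, unadjusted p 0.028, adjusted p 0.550 by edgeR) and lay between -0.27 and -0.17 when any 1 library was left out. Its X-linked paralogue Hnrnph2 had overlapping groups between 92.5 and 102 CPM (0.06 ± 0.07).

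Hnrnph3, a shorter relative that lacks the first RNA-binding domain of the family, was at 43.3, 41.6 and 42.9 CPM in Control and 32.3, 37.5 and 39.4 CPM in Cationorm. The Control libraries agreed closely, and all 3 Cationorm libraries were lower (log2 fold change -0.19 ± 0.08, unadjusted p 0.041, adjusted p 0.550 by edgeR). Rufy2 overlaps Hnrnph3 in gene span, and 2.69% of the 50-base words of Hnrnph3 also occur in transcripts of other genes. Rufy2 was also lower in every Cationorm library, with 19.8, 18.5 and 18.9 CPM in Control and 16.1, 13.9 and 16.8 CPM in Cationorm (-0.26 ± 0.10). Its part in the Hnrnph3 counts was not tested.

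The hnRNP genes with the smallest p among those higher in Cationorm were Hnrnpa1, Hnrnpd and Hnrnpul1. Hnrnpa1, a shuttling repressor of exon inclusion, was at 304, 315 and 343 CPM in Control and 345, 348 and 341 CPM in Cationorm (log2 fold change 0.14 ± 0.07). Hnrnpd, also called AUF1, which binds AU-rich elements and promotes mRNA decay, was at 116, 121 and 143 CPM in Control and 138, 141 and 136 CPM in Cationorm (0.16 ± 0.09). In both genes Control 3 was above the lowest Cationorm library, so the groups overlapped.

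Hnrnpul1, which takes part in transcription and the response to DNA breaks, was at 257, 256 and 263 CPM in Control and 266, 280 and 267 CPM in Cationorm. The groups did not overlap, but the log2 fold change was 0.10 ± 0.06 (adjusted p 0.573 by edgeR). The abundant members Hnrnpk, a binder of C-rich RNA, Hnrnpu, a nuclear scaffold protein, and Hnrnpl, a binder of CA repeats, were level between groups. Hnrnpk lay between 478 and 539 CPM (0.01 ± 0.07), Hnrnpu between 451 and 503 CPM (-0.0018 ± 0.06) and Hnrnpl between 287 and 316 CPM (0.01 ± 0.06). The 95% interval of Hnrnpl ran from -0.12 to 0.14. The other 10 hnRNP genes had log2 fold changes from -0.11 (Hnrnpc) to 0.06 (Hnrnpab), and 9 of those 10 overlapped between groups on CPM, the exception being Hnrnpdl.

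The Ptbp genes went in different directions. Ptbp1, the paralogue of most non-neuronal cells, was at 208, 220 and 206 CPM in Control and 230, 219 and 214 CPM in Cationorm (log2 fold change 0.10 ± 0.07, groups overlapping). Ptbp3, best known from blood cells, was at 281, 354 and 288 CPM in Control and 285, 278 and 272 CPM in Cationorm (-0.11 ± 0.11), and its value without Control 2 was -0.01. Per kilobase of exon, Ptbp1 was at 61.3 CPM in Control, Ptbp3 at 42.5 and Ptbp2 at 6.66, and the order was the same in Cationorm at 64.1, 38.4 and 4.71.

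Ptbp2, also called nPTB, replaces Ptbp1 during neuronal differentiation, and Ptbp1 is known to repress it by skipping one of its exons. It was at 34.1, 33.2 and 30.8 CPM in Control and 22.7, 20.2 and 26.5 CPM in Cationorm. Every Cationorm library was lower, and Cationorm 3 came nearest to Control. The log2 fold change was -0.47 ± 0.10 (95% interval -0.71 to -0.23, unadjusted p 0.0025, adjusted p 0.550 by edgeR). Leaving out 1 library gave -0.56 to -0.40, with the lowest adjusted p, 0.0539, without Cationorm 3. None of its 50-base words occurred in another gene's transcripts. Relative to Ptbp1, not corrected for length, Ptbp2 was 16.4, 15.1 and 15.0% in Control and 9.85, 9.21 and 12.4% in Cationorm, with no overlap.

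Markers of neurons and retina varied over the same libraries. In order of replicate number, the 10 neuron markers summed to 512, 394 and 298 CPM in the Control libraries and 144, 127 and 364 CPM in the Cationorm libraries, and 10 of 10 had a fold change below 0. The 14 retina markers summed to 8242, 7090 and 5557 CPM in Control and 2643, 2092 and 6772 CPM in Cationorm, and 13 of 14 were below 0. In Ptbp2 and in both sums, Control 1 was the highest library, Cationorm 2 the lowest, and Cationorm 3 the highest of its group. The sums overlapped between groups, through Cationorm 3, whereas Ptbp2 did not, and the part of neural or retinal RNA in the Ptbp2 difference was not tested.

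**Figure D4:**
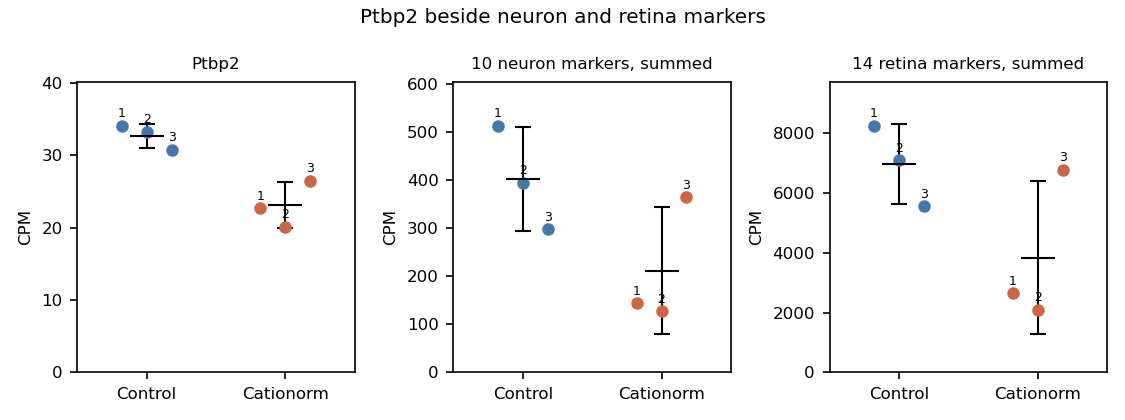
Level in CPM (y axes, from 0) of Ptbp2 and of the summed neuron and retina markers in each library, numbered by replicate; horizontal bars are group means and vertical bars the SD. Cationorm 3 lies among the Control libraries in both marker sums (364 and 6772 CPM), while its Ptbp2 level of 26.5 CPM stays below all 3 Control libraries.

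Sarnp, also called CIP29, is a SAP domain protein that joins the TREX complex, which couples splicing to mRNA export. It showed the largest difference of all members. Its levels were 13.2, 12.6 and 12.4 CPM in Control and 6.90, 7.16 and 6.67 CPM in Cationorm. The groups were far apart and each was tight, with means of 12.7 ± 0.403 and 6.91 ± 0.244 CPM (SD, n = 3 per group). The log2 fold change was -0.85 ± 0.11 (95% interval -1.11 to -0.59, unadjusted p 0.00011, adjusted p 0.550 by edgeR), and its adjusted p was 0.0352 without Cationorm 3, when 1.75% of all genes tested were called lower. Control 3 and Cationorm 3, the most alike pair over all genes, were at 12.4 and 6.67 CPM in Sarnp.

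A second row of the table bears on that count. Gm6563 is a processed pseudogene, an intronless copy of the Sarnp mRNA inserted elsewhere in the genome. In the GRCm38 annotation, Sarnp lies on the plus strand at chr10:128817333-128877629 and Gm6563 on the plus strand at chr19:23675848-23676480. All 633 bases of Gm6563 align without a gap to the Sarnp coding sequence, with 1 substitution, G288A, counted from 1 at the A of the start codon (Sarnp base first), an identity of 99.8%. Of the 50-base words in Sarnp transcripts, 53.1% occur in another gene's transcript, and Gm6563 alone holds that share. The Sarnp transcript is 918 bases long, and its transcript bases outside 43 to 675 are not part of that alignment. A read inside the 633 aligned bases that does not cover the differing base fits both copies equally. The stretch from position 228 to 348 is shown with that base in capitals:
Sarnp: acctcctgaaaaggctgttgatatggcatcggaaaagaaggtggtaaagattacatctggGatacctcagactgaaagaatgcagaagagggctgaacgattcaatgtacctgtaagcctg
Gm6563: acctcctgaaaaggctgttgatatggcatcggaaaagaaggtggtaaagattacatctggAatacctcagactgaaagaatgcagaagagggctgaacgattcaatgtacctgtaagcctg

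Gm6563 held more counts than Sarnp itself, at 25.2, 30.5 and 22.1 CPM in Control and 29.5, 30.5 and 29.3 CPM in Cationorm. It was higher in Cationorm on average, and the groups overlapped through Control 2 (log2 fold change 0.23 ± 0.13, adjusted p 0.558 by edgeR). Summed, the rows stood at 38.4, 43.0 and 34.5 CPM in Control and 36.4, 37.7 and 36.0 CPM in Cationorm. In that sum all 3 Cationorm libraries lay inside the Control range, with a log2 fold change of -0.04 ± 0.10 (95% interval -0.27 to 0.19, adjusted p 0.892 by edgeR and 0.915 by DESeq2).

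The division of counts between the copies differed more than their sum. Gm6563 took 65.7, 70.8 and 64.0% of the summed counts in Control and 81.0, 81.0 and 81.5% in Cationorm, with means of 66.8 ± 3.54% and 81.2 ± 0.253% (SD, n = 3 per group). The 95% Wilson intervals, which cover counting error only, reached up to 73.0% in Control 2 and down to 78.7% in Cationorm 1. They take each count as a separate fragment, and are too narrow if a fragment gave more than 1 count. The lower Sarnp count therefore stands only for the Sarnp row, and is uncertain as a level of Sarnp mRNA. Whether reads of the same transcript were placed differently between the rows was not tested. This pair was singled out after its values were seen.

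**Figure D5:**
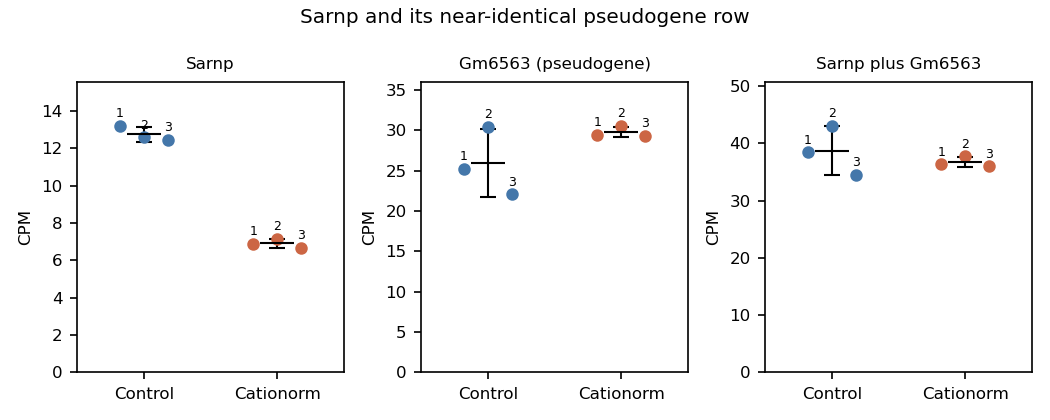
Level in CPM (y axes, from 0) of Sarnp, of Gm6563 and of their sum in each library, numbered by replicate; horizontal bars are group means and vertical bars the SD. Sarnp is separated (12.4 to 13.2 against 6.67 to 7.16 CPM), while in the sum the Cationorm libraries, 36.0 to 37.7 CPM, lie inside the Control range of 34.5 to 43.0 CPM.

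In gene span, Sarnp also overlaps Dnajc14 and Ormdl2. Outside the words shared with Gm6563, no 50-base word of the coding Sarnp transcripts occurs in another gene's transcript. Exon overlap with other Sarnp isoforms was not tested. Dnajc14 was at 70.0 to 72.1 CPM in Control and 66.0 to 68.8 CPM in Cationorm (log2 fold change -0.03 ± 0.05), and Ormdl2 at 23.2 to 30.5 and 22.2 to 25.1 CPM (-0.15 ± 0.12). The Dnajc14 groups did not overlap on CPM and those of Ormdl2 did, and both fold changes were nearer 0 than that of the Sarnp row.

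Pseudogene copies are common among these genes. Of the 41 members, 15 had at least 1 pseudogene row that shared 50 or more 50-base words with them. Hnrnpa3 had 33 such rows, which held 33.5% of the counts of gene and copies together. The 2 rows of Hnrnpk held 12.2%, the 10 of Hnrnpa1 10.3% and the 6 of Hnrnpf 5.07%. In each of the 14 members other than Sarnp the pseudogene share overlapped between the groups. With copies added, Hnrnpa1 had a log2 fold change of 0.13 ± 0.06 against 0.14 ± 0.07 alone, and Hnrnpa3 of 0.08 ± 0.07 against 0.06 ± 0.07. With the copies added to every member, edgeR called 0 members and DESeq2 called 1, Ptbp2, at an adjusted p of 0.0494.

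Compared per kilobase of coding-transcript exon, the most abundant members in Control after Hnrnpa2b1 (292 CPM per kilobase) were Srsf5 (227) and Hnrnpa1 (167). Srsf2 (137), Hnrnph1 (135), Clk1 (129) and Hnrnpk (123) came next, and these 4 differed by less than the SD of Clk1 in Control (19.4 CPM per kilobase). In Cationorm the first 3 were again Hnrnpa2b1 (262), Srsf5 (236) and Hnrnpa1 (180). At the low end, Srsf12 was at 0.588 CPM per kilobase in Control and 0.570 in Cationorm.

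A feature that the choice of members did not use is their annotated isoforms. In the GENCODE M21 annotation, 29 of 41 members (70.7%) have at least 1 transcript marked for nonsense-mediated decay, beside 26.6% of the 14832 protein-coding genes tested. By class this held for 9 of 11 SR genes, 10 of 20 hnRNP genes, 3 of 3 Ptbp genes, 4 of 4 Clk genes and all 3 of Tra2a, Tra2b and Sarnp. A retained-intron transcript is annotated for 32 of 41 members (78.0%), beside 55.4%. The members also have more annotated transcripts, with a median of 9 per gene beside 5, and its part in these shares was not tested. The counts are per gene, so the share of decaying transcripts in either group could not be measured here.

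Among other genes of the pathway, lists were made for partners of SR proteins, tissue-restricted regulators, the spliceosome, mRNA export and nonsense-mediated decay. By edgeR 0 of their 123 tested genes were called, with 7 higher and 2 lower in Cationorm at an unadjusted p under 0.05 (beside 5.16% and 3.57% of all genes), and DESeq2 called 0. On CPM, 8 of the 123 had every Cationorm library higher and 12 had every one lower, beside 6.41% and 8.9% of all genes. Of 20 SR kinases, importers and coactivators, 7 were lower in Cationorm. Tnpo3, the nuclear import receptor of SR proteins, was at 71.9, 63.6 and 73.8 CPM in Control and 80.6, 77.3 and 75.4 CPM in Cationorm (log2 fold change 0.19 ± 0.08), without overlap. The coactivator Srrm1 was at 0.18 ± 0.09. In the opposite direction were the U1-associated protein Luc7l3, at 124, 139 and 121 CPM in Control and 104, 101 and 108 CPM in Cationorm (-0.26 ± 0.07), and the poly(A)-binding protein Pabpn1 (-0.17 ± 0.09). Both were without overlap on CPM.

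Of 32 tissue-restricted regulators, 24 were lower in Cationorm, and 3 of the 32 (Elavl3, Elavl4 and Rbfox3) also stand in the neuron marker list. Esrp1, which sets epithelial splicing patterns, was at 327, 311 and 361 CPM in Control and 390, 371 and 355 CPM in Cationorm (log2 fold change 0.20 ± 0.08). Rbm20, the titin splicing factor of striated muscle, was at 23.4, 22.6 and 23.4 CPM in Control and 27.3, 26.6 and 28.7 CPM in Cationorm (0.28 ± 0.07), without overlap. The neuronal Elavl2 (-1.10 ± 0.47) and Khdrbs3 (-0.37 ± 0.16) were lower on average, and in both the groups overlapped through Cationorm 3. Elavl2 was at -0.61 without Control 1, and without Cationorm 3 Elavl2 was at -1.47 and Khdrbs3 at -0.56.

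Without Cationorm 3, edgeR called 5 list genes, each lower in Cationorm, in a fit that called 1.75% of all genes lower. They were Celf3, Celf4, Msi1, Srrm3 and Srrm4, regulators with neural or retinal expression. Srrm4, the neural microexon regulator, was at 10.7, 9.58 and 7.69 CPM in Control and 3.20, 2.44 and 9.75 CPM in Cationorm. Cationorm 3 lay in the Control range, as it did in the neuron and retina marker sums, and the part of those tissues was not tested.

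The spliceosome list had a median log2 fold change of 0.04 over 41 genes tested, 19 of them lower. Ddx46, the helicase that helps U2 to bind the branch site, was at 77.5, 78.1 and 77.2 CPM in Control and 91.1, 86.4 and 85.9 CPM in Cationorm (0.21 ± 0.06), without overlap. Snrnp200, the helicase that unwinds U4 from U6, was at 0.16 ± 0.07. The Sm protein Snrpe (-0.47 ± 0.20) and the U1 protein Snrpc (-0.29 ± 0.13) were lower, with overlapping groups. On CPM, 6 genes of this list had every Cationorm library lower and 3 had every one higher, beside 8.9% and 6.41% of all genes.

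Of 15 genes of TREX, the complex that Sarnp joins, 10 were lower in Cationorm. Ddx39b, the helicase to which Sarnp binds, was at 166, 160 and 167 CPM in Control and 175, 176 and 179 CPM in Cationorm (0.14 ± 0.05), without overlap, and its paralogue Ddx39a was at 0.11 ± 0.09. Thoc2, the scaffold of the THO complex, was at -0.21 ± 0.12 and the adaptor Fyttd1 at -0.10 ± 0.07. Of 15 genes of the exon junction complex and nonsense-mediated decay, 8 were lower: the helicase Upf1 was at 0.16 ± 0.07 and Eif4a3 at 0.10 ± 0.06, Magoh at -0.18 ± 0.09 and the kinase Smg1 at -0.07 ± 0.06.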

How the data were processed

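Per the file headers, the deposited table holds raw read counts per gene symbol, and the authors' processing before that is known only in part. Per the submitters' processing notes, DESeq2 and the builds GRCm39 and mm39 were used, with no role given. For the aligner, the counter, the annotation release and the strandedness of counting, the record is the same: not given in the sources used here. Columns were matched to samples by library name and groups taken from the titles.

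Counts were filtered with filterByExpr (18804 of 35673 genes kept, 3247 had no count), scaled by TMM and tested with edgeR 4.0.16 (glmQLFit, glmQLFTest, R 4.3.3), with Benjamini-Hochberg adjustment over all genes tested at 0.05. Standard errors came from the fold change and its F statistic. Levels are CPM of the library total. Isoforms, overlaps, exon lengths and shared 50-base words came from GENCODE M21 (GRCm38), matched by symbol for 41 of 41 members. Its build is older than that of the table, so coordinates stand for that annotation only. Replicates of a group differed by more than sampling noise (chi-square of at least 30.5 per degree of freedom). The script was tested on simulated counts.

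Named were Sarnp, the Ptbp, Clk and Tra2 genes, the 6 most abundant SR and hnRNP genes, the 5 members with the smallest p in each direction, and 2 per direction in each other list; further names were added after their values were seen. Members and lists were chosen with earlier results of these data known, and members served no set test. Alternatives were other scalings, no filter, DESeq2 1.42.0, limma 3.58.1 (voom, with and without sample weights), a replicate block and leaving out each library; the sums with pseudogene rows were chosen after seeing the data.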

Additional observations from a re-analysis of the deposited data

How the results depend on the processing

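All members passed the filter on low counts, and how depth or the number of libraries limited the calls was not tested. DESeq2 called 55 genes and 2 members, and with pseudogene rows added, an alternative chosen after seeing the data, 53 genes and 1 member. Leaving out 1 library gave 0 to 350 genes called (350 without Cationorm 3, of which 335 were lower, 8 without Control 3 and 1 without Control 2), 0 to 1 members (Sarnp without Cationorm 3) and 0 to 5 genes of the other lists. The median log2 fold change of the members stayed below 0 in every alternative run, from -0.0814 (without Control 3) to -0.0036 (without Cationorm 3). Of 350 comparisons of the 25 named members under other scalings, filters, tests and left-out libraries, 322 kept direction and side of the threshold, 25 in 6 genes changed sign and 3 passed the threshold. The 20 named genes of other lists changed in none of 280. They had been picked for the smallest p in each direction, which makes a change of sign less likely, so that count does not measure stability. The 5 list genes called without Cationorm 3 were not among them.

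Of the 6 genes that changed sign, Tra2b (-0.09) was the farthest from 0 with all libraries. With libraries scaled by total counts alone, Clk3 was at -0.0224, Hnrnpk at -0.0236 and Hnrnpl at -0.0278. With voom sample weights, Clk3 was at -0.0274 and Hnrnpu at 0.0181. Hnrnpl was at -0.0018 with DESeq2 size factors, -0.0015 with upper-quartile factors, -0.0017 with DESeq2 and -0.0014 with DESeq2 on the summed rows. With 1 library left out, the range was -0.0849 to 0.0341 for Clk2, -0.0341 to 0.0696 for Clk3, -0.183 to 0.0276 for Tra2b, -0.0322 to 0.0521 for Hnrnpk, -0.0358 to 0.0259 for Hnrnpu and -0.0276 to 0.0321 for Hnrnpl. The cause of these changes was not tested.

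Deviations of same-numbered libraries from their group means correlated at -0.198, -0.343 and -0.210, so replicate numbers showed no sign of pairing. Between differently numbered libraries of different groups, the correlations ran from -0.187 to 0.421. Deviations within a group sum to 0, so these values cannot decide whether samples were paired. With the replicate block, edgeR called 0 genes and 0 members, the smallest adjusted p was 0.699, and the median of the members was -0.035.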
